A study of Mus musculus with 15 samples.

Results

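Mature thymocytes that carried both coreceptors, CD4 and CD8, and that did or did not carry Thpok-RKF were compared by RNA sequencing. The comparison used 6 of the 15 libraries of the series, chosen by their labels alone: 3 libraries of Thpok-RKF+ and 3 of Thpok-RKF- CD4+CD8+ cells. All of these cells were CD45.2+ and descended from marrow donors of the C57BL/6 strain with Thpok fl/fl, Runx3 fl/dYFP and Cd4-Cre+. Together with wild-type (WT) marrow marked CD45.1+CD45.2+, that marrow was given to irradiated CD45.1+ B2m-/- hosts, which lack a chain needed by MHC class I. The sort gate was CD44 low, TCR beta high, CD24 low, CD69 low, CD4+ and CD8+ in both groups. The only difference in the labels was therefore the name Thpok-RKF- or Thpok-RKF+, and the labels do not explain this name or give its promoter. Cd4-Cre deletes floxed sequence in developing T cells, so both groups shared the floxed Thpok and Runx3 alleles and the Cre. The other 9 libraries, 3 each of WT CD4 single-positive (SP), WT CD8 SP and Thpok-RKF- CD8 SP thymocytes, gave reference levels. WT CD4 SP cells were the CD45.1+CD45.2+ competitors in the B2m-/- hosts, and the WT CD8 SP group was taken from I-Ab-deficient hosts, so host and lineage cannot be told apart between the WT groups. Whether the replicates of a group were different animals is not stated, so each p-value reflects the spread among these libraries, which may be technical.

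Thpok, the product of Zbtb7b, is a zinc finger transcription factor that directs thymocytes bearing MHC class II-restricted receptors into the CD4 helper lineage. Runx3 is a transcription factor of the CD8 cytotoxic lineage, and each of these factors opposes expression of the other in developing T cells. Mature thymocytes normally keep either CD4 or CD8 and silence the coreceptor of the other lineage.

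Gene totals of the 6 libraries lay between 43408417 and 48607260 counts. Thpok-RKF+ replicate 1 stood apart from replicates 2 and 3: a chi-square of the counts, divided by the degrees of freedom, was 190.4 and 115 for its pairs, against 34.8 for replicates 2 and 3. Thpok-RKF- replicate 1 lay apart from its group to a lesser degree, with 54.8 and 53.8 for its pairs against 18.8 for replicates 2 and 3. Reads that overlapped no annotated gene, a part of all unassigned reads, made up 11.2% of the counted reads of Thpok-RKF+ replicate 1. The share was 5.28% and 5.65% in the other Thpok-RKF+ libraries and 8.32% to 9.83% in the Thpok-RKF- libraries. In each of the 5 groups of the series this share was highest in replicate 1. The summed level of 15 myeloid markers was 66.8 CPM (counts scaled to library size and composition) in Thpok-RKF+ replicate 1. It was 2.51 to 4.09 CPM in the other 5 libraries. Among the reference libraries, WT CD4 SP replicate 1 had 48.5 CPM, beside 4.53 and 4.94 CPM in replicates 2 and 3 of that group. Lyz2, the macrophage lysozyme gene, was at 24.5, 0.194 and 0.876 CPM in Thpok-RKF+ libraries and 0.570, 0.709 and 0.911 CPM in Thpok-RKF- libraries. Among the 6 libraries C1qa had counts in Thpok-RKF+ replicate 1 alone. Results are therefore also given without this library. In both groups the T cell receptor gene Trac stood between 1073 and 1761 CPM, and the B cell marker Ms4a1 had no count in any of the 6 libraries. Transcripts of gate markers were present all the same: Cd69 lay between 147 and 236 CPM, Cd44 between 5.90 and 22.6 CPM and Cd24a between 0.734 and 4.40 CPM over the 6 libraries.

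Across 16550 tested genes, 159 differed between Thpok-RKF+ and Thpok-RKF- cells (0.961% of the genes tested; adjusted p under 0.05 by the edgeR quasi-likelihood test, Benjamini-Hochberg method). Of these, 97 were higher (0.586%) and 62 lower (0.375%) in Thpok-RKF+ cells, and 53 of the rises and 46 of the falls exceeded 2-fold. An unadjusted p below 0.05 was found for 2364 genes (14.3%), for 1107 of them with a lower level (6.69%), and DESeq2 called 685 genes (4.14%), 317 of them lower (1.92%). The median log2 fold change over all tested genes was 0.01, with quartiles of -0.33 and 0.27. The 3 libraries of each group did not overlap for 2717 genes (16.4%), among which were all 159. With each of the 6 libraries left out in turn, 41 of the 159 genes passed every time, 25 of them higher and 16 lower. Without Thpok-RKF+ replicate 1, 1677 genes passed (9.74% of 17219), 949 higher (5.51%) and 728 lower (4.23%), with all 159 among them. Without any 1 of the other 5 libraries, 50 to 92 genes passed. In a fit of the 6 CD4+CD8+ libraries alone 52 genes passed, 45 of them among the 159. Among the 159 genes, replicate 1 was the least shifted Thpok-RKF+ library in 106, replicate 2 in 24 and replicate 3 in 29.

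**Figure D1:**
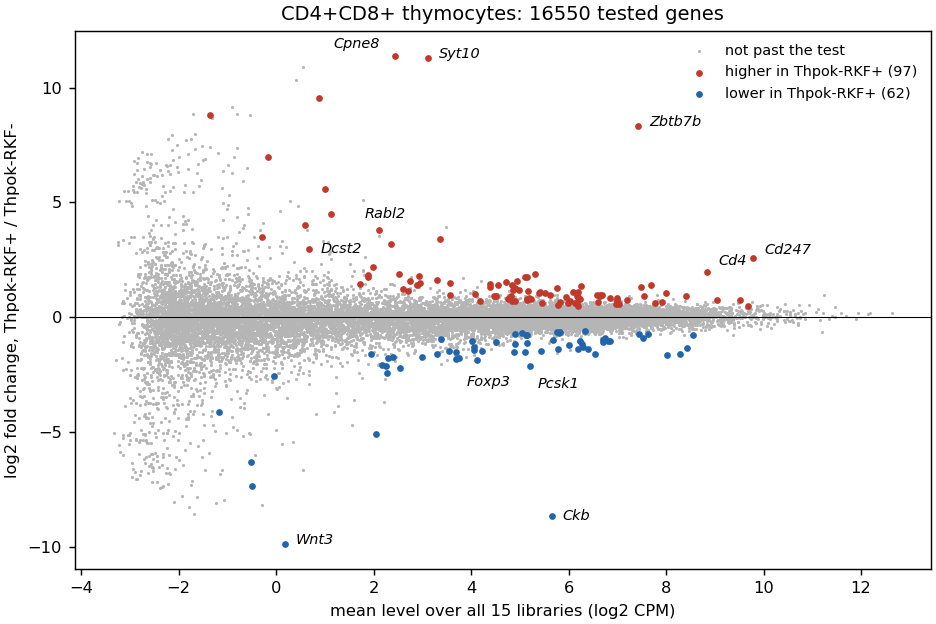
Log2 fold change between Thpok-RKF+ and Thpok-RKF- CD4+CD8+ cells (vertical) against the mean level over all 15 libraries in log2 CPM (horizontal), 1 point for each of 16550 tested genes. The 97 genes that rose are red and the 62 that fell are blue. Zbtb7b, Cd247, Cd4 and Ckb lie away from genes of similar level, and the fitted values of Syt10, Cpne8 and Wnt3 rest on 0 to 2 counts in 1 group.

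**Figure D2:**
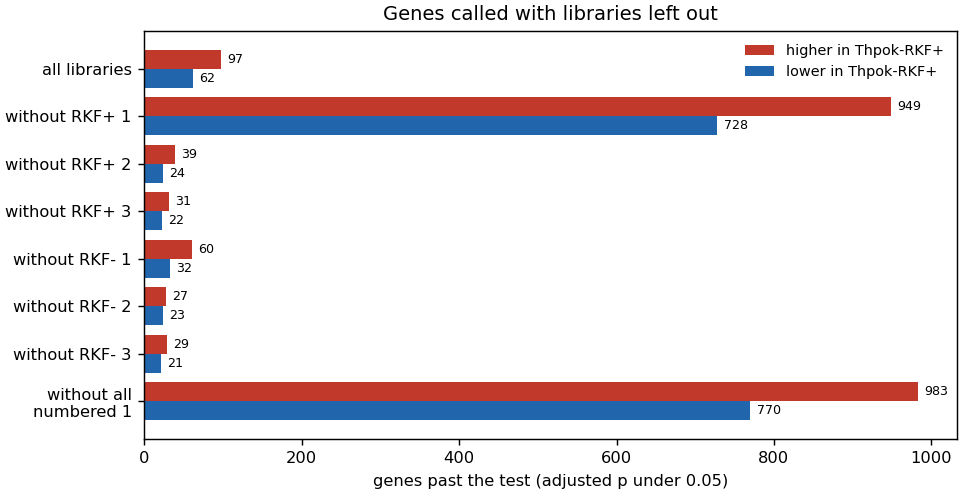
Number of genes past the test, higher (red) and lower (blue) in Thpok-RKF+ cells, with all libraries and with the named CD4+CD8+ library left out. The lowest bars omit all 5 libraries numbered 1. The counts reached 949 and 728 without Thpok-RKF+ replicate 1 and lay at 27 to 60 and 21 to 32 without any other single library.

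Zbtb7b, the gene that encodes Thpok, separated the groups as their names say. It was measured at 2.77, 2.95 and 1.67 CPM in the Thpok-RKF- libraries and at 812, 768 and 823 CPM in the Thpok-RKF+ libraries. The groups were far apart, and the Thpok-RKF+ level also lay above that of WT CD4 SP cells (56.8 ± 26.6 CPM; SD, n = 3), with Thpok-RKF- CD8 SP cells at 2.18 ± 0.301 CPM. The log2 fold change was 8.34 ± 0.42 (SE; edgeR, adjusted p = 5.22e-08), and the counts over the groups, 344 and 108707, gave a ratio of 314 (95% interval 282 to 350). Such an interval covers counting error only. Gene counts cannot separate reads of the endogenous locus from reads of Thpok-RKF, and they do not check whether floxed exons were deleted.

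The genes on either side of Zbtb7b in RefSeq order were higher too. Dcst2, which encodes a membrane protein of the DC-STAMP domain family, was at 1.26, 0.421 and 0.644 CPM in Thpok-RKF- and 5.16, 6.33 and 6.73 CPM in Thpok-RKF+ libraries (log2 fold change 2.96 ± 0.54, adjusted p = 0.0224). The predicted gene Gm15417 was at 2.38, 2.19 and 1.31 CPM and 6.35, 11.6 and 9.29 CPM (2.21 ± 0.44, adjusted p = 0.0281). Both pairs of groups were separate. Both genes were named after their values were seen, and the strand setting of the counting is not given in the sources used here, so reads of overlapping transcripts cannot be told apart. Dcst2 missed the threshold without any 1 of the 4 libraries numbered 2 or 3 (edgeR, adjusted p from 0.0837 to 0.12). Gm15417 missed the threshold without any 1 of the 5 libraries other than Thpok-RKF+ replicate 1 (edgeR, adjusted p from 0.07 to 0.14).

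Runx3 was not called. Its level was 295, 267 and 274 CPM in Thpok-RKF- and 361, 268 and 286 CPM in Thpok-RKF+ libraries, and the ranges overlapped (log2 fold change 0.13 ± 0.14, adjusted p = 0.735). In every library of both groups it lay above the mean of WT CD8 SP cells (206 ± 13.2 CPM; SD, n = 3) and of WT CD4 SP cells (28.8 ± 4.95 CPM). Gene counts do not check whether floxed Runx3 exons were deleted. Nor do they separate reads of the floxed allele from reads of the dYFP allele, so the level of intact Runx3 transcript is not known. Of 6 tested genes of the Runx and Zbtb7 families only Zbtb7b passed, beside 0.961% of all genes. Runx1 had a log2 fold change of -0.30 ± 0.17, Runx2 of -2.21 ± 0.81, the Runx partner Cbfb of 0.05 ± 0.14 and Zbtb7a, a close relative of Zbtb7b, of 0.07 ± 0.10, all with adjusted p of at least 0.232.

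Cd247 encodes the zeta chain, which carries most of the signalling motifs of the T cell receptor (TCR) complex. It was at 428, 459.5 and 422 CPM in Thpok-RKF- libraries and at 2376, 2773 and 2699.8 CPM in Thpok-RKF+ libraries. The Thpok-RKF+ libraries were all above every other library of the series, since the WT CD4 SP, WT CD8 SP and Thpok-RKF- CD8 SP groups stood at 519.8 ± 50.1, 417 ± 14.9 and 428 ± 10.2 CPM. The log2 fold change was 2.58 ± 0.10 (adjusted p = 1.80e-09), the smallest adjusted p of the comparison, and it lay between 2.55 and 2.66 with each library left out.

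No other chain of the receptor complex passed the test. All 8 tested genes of this list had positive values, with a median log2 fold change of 0.23, which was 0.40 without Thpok-RKF+ replicate 1. The CD3 chains Cd3e, Cd3d and Cd3g had values of 0.02 ± 0.09, 0.19 ± 0.15 and 0.28 ± 0.17. The constant regions Trac, Trbc1 and Trbc2 had values of 0.14 ± 0.17, 0.40 ± 0.14 and 0.16 ± 0.14, with adjusted p of 0.224 or more. Trbc1 and Trbc2 are near-identical, so the division of their reads is uncertain. Fcer1g, which can replace the zeta chain in some receptors, was at 0.0407, 0.0887 and 0.111 CPM and 1.35, 0.108 and 0.379 CPM and did not pass (adjusted p = 0.282). Among 32 tested genes of proximal TCR signalling none passed by edgeR and 1 by DESeq2, while 9 had an unadjusted p below 0.05, 5 higher and 4 lower, beside 4.14% of all genes by DESeq2 and 14.3% with such a p. The median was 0.06, and -0.03 without Thpok-RKF+ replicate 1. Without that library 2 of the 8 TCR complex genes and 9 of the 32 signalling genes passed, beside 9.74% of all genes. The calcium-responsive factor Nfatc2 had the lowest p of that list and stood at 108, 85.8 and 104 CPM and 75.2, 28.7 and 41.6 CPM (-1.04 ± 0.28, adjusted p = 0.106). V and J segments gave no call either: 76 alpha V, 56 alpha J, 25 beta V and 14 beta J segments were tested.

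Among 21 genes that respond to TCR signals, Nr4a1 was the only call, beside 0.961% of all genes. It encodes an orphan nuclear receptor induced early after TCR engagement, and it was at 184, 107 and 107 CPM in Thpok-RKF- and 198, 425 and 378 CPM in Thpok-RKF+ libraries (log2 fold change 1.33 ± 0.29, adjusted p = 0.0476). The lowest Thpok-RKF+ library, replicate 1, was only slightly above the highest Thpok-RKF- library, which was also replicate 1. Nab2, a corepressor of Egr factors, and Ikzf2, the Helios gene, had values of 0.62 ± 0.24 and -0.86 ± 0.40 without passing (adjusted p = 0.261 and 0.343). The median of the 21 genes was 0.01, the same as over all genes, and 0.10 without Thpok-RKF+ replicate 1. Nr4a1 missed the threshold without any 1 of the 4 libraries numbered 2 or 3 (edgeR, adjusted p from 0.184 to 0.192).

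Ckb, which encodes the brain type creatine kinase, was the largest fall among called genes with a mean log2 CPM of at least 3. Its level was 61.7, 57.3 and 51.1 CPM in Thpok-RKF- libraries and 0.381, 0 and 0.0237 CPM in Thpok-RKF+ libraries. The groups were far apart, and all 3 other groups expressed the gene (124 ± 9.59 CPM in WT CD4 SP, 18.1 ± 2.47 CPM in WT CD8 SP and 53.2 ± 3.39 CPM in Thpok-RKF- CD8 SP). Over the groups 7917 and 19 counts were found, a ratio of 420 (95% interval 269 to 698). The fitted log2 fold change was -8.64 ± 0.49 (adjusted p = 2.01e-07); it was -11.96 without Thpok-RKF+ replicate 1, which held 18 of the 19 counts. Of 7 genes of creatine metabolism 3 were tested. The muscle creatine kinase gene Ckm stood at no more than 0.568 CPM and the synthesis enzyme gene Gamt at no more than 0.687 CPM, and neither passed.

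Syt10 and Cpne8 were almost silent without Thpok-RKF and expressed with it. Syt10, a member of the synaptotagmins, which are calcium sensors of vesicle fusion, was at 0.0407, 0 and 0 CPM in Thpok-RKF- and 33.4, 48.0 and 45.7 CPM in Thpok-RKF+ libraries. It had 2 counts against 5731, a ratio of 2844 (95% interval 787 to 23490). Cpne8, a copine gene of the calcium-dependent phospholipid-binding proteins, was at 0.0203, 0 and 0 CPM and 31.1, 22.3 and 26.6 CPM, or 1 count against 3623, a ratio of 3596 (95% interval 645 to 142066). No Thpok-RKF- library came near any Thpok-RKF+ library for either gene. The means of the 3 other groups were at most 0.341 CPM for Syt10 and 0.238 CPM for Cpne8. All Thpok-RKF- counts of both genes were in replicate 1, and without it the fitted log2 fold change was 13.87 for Syt10 and 13.20 for Cpne8, against 11.27 and 11.38 with it.

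Syt10 and Cpne8 are neighbours in RefSeq order, with 1 tested gene between them, and Rabl2, a small GTPase gene, lies directly on the other side of Syt10. Rabl2 was at 0.855, 1.42 and 1.38 CPM in Thpok-RKF- libraries and 13.6, 18.4 and 18.6 CPM in Thpok-RKF+ libraries (log2 fold change 3.79 ± 0.65, adjusted p = 0.0123), with no overlap. The order is that of RefSeq on GRCm38.p6, in which 14650 of the tested genes could be placed. Of 22 synaptotagmin and synaptotagmin-like genes, 11 were tested and 2 rose, beside 0.586% of all genes. The second was Sytl2, a Rab27 effector of granule exocytosis, at 58.9, 47.9 and 35.8 CPM and 84.0, 105 and 111 CPM (1.07 ± 0.20, adjusted p = 0.0213). Rabl2 and Cpne8 were named after their values were seen. Syt10 and Cpne8 passed with each of the 6 libraries left out in turn. Rabl2 missed the threshold without any 1 of Thpok-RKF+ replicate 3 and Thpok-RKF- replicates 1, 2 and 3 (edgeR, adjusted p from 0.0556 to 0.0693). Sytl2 missed the threshold without any 1 of the 4 libraries numbered 2 or 3 (edgeR, adjusted p from 0.0828 to 0.108).

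Genes with no count in 1 group are given as bounds against a floor of 3 counts over that group. Wnt3, which encodes a secreted Wnt ligand, was at 3.70, 2.86 and 1.31 CPM in Thpok-RKF- libraries and had 0 counts in all 3 Thpok-RKF+ libraries, at least 124-fold lower. Lrrc3b, a leucine-rich repeat gene, and Sema3f, a secreted semaphorin gene, had 62 and 31 counts in Thpok-RKF- cells and 0 in Thpok-RKF+ cells, at least 20.8-fold and 10.4-fold lower. The predicted genes Gm32687 and Gm38414 had 286 and 170 counts in Thpok-RKF+ cells and 0 in Thpok-RKF- cells, at least 94.6-fold and 56.2-fold higher. These 5 genes passed the test, and their values were known when they were named. Gm32687 passed with each of the 6 libraries left out in turn. Wnt3, Lrrc3b and Gm38414 missed the threshold without any 1 of the 5 libraries other than Thpok-RKF+ replicate 1 (edgeR, adjusted p from 0.0618 to 0.149). Sema3f missed the threshold without any 1 of Thpok-RKF+ replicates 2 and 3 and Thpok-RKF- replicates 1 and 2 (edgeR, adjusted p from 0.103 to 0.149).

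**Figure D3:**
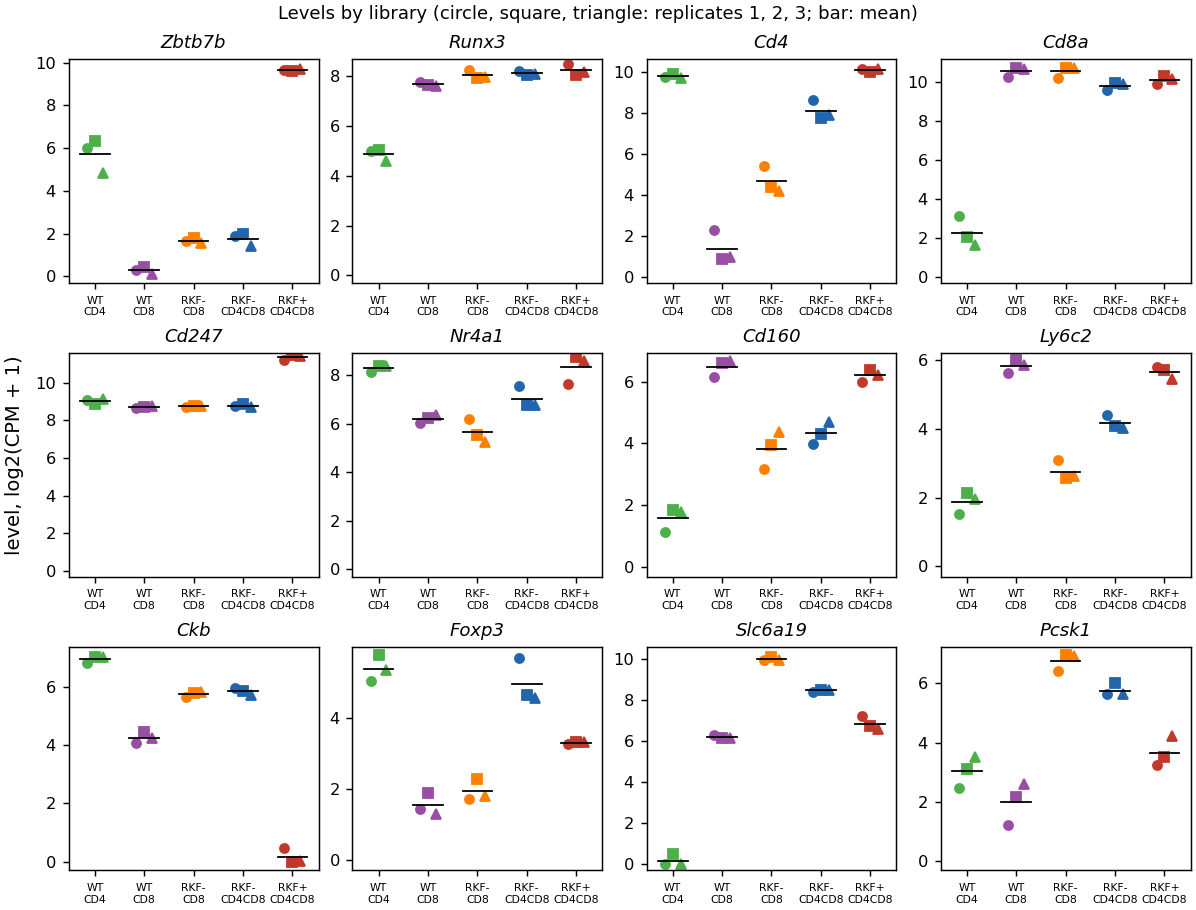
Level of 12 genes in all 15 libraries, as log2(CPM + 1), for the 5 groups; circles, squares and triangles are replicates 1, 2 and 3 and the bar is the mean. Zbtb7b and Cd247 are highest and Ckb lowest in the Thpok-RKF+ cells, Runx3 and Cd8a overlap between the CD4+CD8+ groups, and Slc6a19 and Pcsk1 fall from Thpok-RKF- CD8 SP over Thpok-RKF- to Thpok-RKF+ CD4+CD8+ cells.

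Cd4 was higher in Thpok-RKF+ cells although both groups had been sorted as CD4+. It was at 397, 214 and 234 CPM in Thpok-RKF- libraries and 1123, 1036 and 1147 CPM in Thpok-RKF+ libraries (log2 fold change 1.97 ± 0.42, adjusted p = 0.0393). The groups did not overlap, and the Thpok-RKF+ libraries lay above the WT CD4 SP mean of 889 ± 74.6 CPM, while Thpok-RKF- CD8 SP cells had 26.3 ± 13.2 CPM. The CD8 chains were not called. Cd8a was at 748, 962 and 943 CPM and 935, 1254 and 1128 CPM (0.32 ± 0.31, adjusted p = 0.678), and Cd8b1 at 682, 976 and 991 CPM and 845, 1100.1 and 967 CPM (0.14 ± 0.18, adjusted p = 0.788). The ranges of both CD8 genes overlapped, and both lay far above WT CD4 SP cells (4.33 ± 2.95 CPM for Cd8a). Cd4 missed the threshold without any 1 of the 5 libraries other than Thpok-RKF+ replicate 1 (edgeR, adjusted p from 0.0536 to 0.18).

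A list of helper lineage genes that left out Zbtb7b and Cd4 gave no call: none of 18 tested passed by edgeR and 2 by DESeq2, beside 4.14% of all genes, and 5 had an unadjusted p below 0.05, beside 14.3%. The median log2 fold change was 0.10 against 0.01 over all genes. Of these 18 genes 12 were higher in WT CD4 SP than in WT CD8 SP cells. Dusp5, a phosphatase of ERK, came nearest to the threshold, at 34.2, 30.4 and 26.2 CPM and 38.6, 64.1 and 57.1 CPM (0.81 ± 0.18, adjusted p = 0.05), followed by Tox, a nuclear factor needed for CD4 lineage development, at 159.8, 166 and 166 CPM and 215, 268 and 263 CPM (0.60 ± 0.14, adjusted p = 0.0532). Both had separate groups. Gata3, a helper lineage factor, was at 77.2, 75.7 and 83.0 CPM and 67.2, 88.4 and 93.4 CPM (0.08 ± 0.16, adjusted p = 0.878), with overlapping groups. Without Thpok-RKF+ replicate 1 the median was 0.23 and 2 of the 18 genes passed, both higher, a share near the 9.74% of all genes.

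Of 26 tested cytotoxic lineage genes, 5 rose and 2 fell, beside 0.586% and 0.375% of all genes. The median was 0.18, or 0.29 without Thpok-RKF+ replicate 1. The list was drawn up with earlier results of these data known, so its count is no independent evidence of a direction. Cd160, a receptor of NK and cytotoxic T cells, was at 14.7, 18.9 and 24.8 CPM in Thpok-RKF- and 62.7, 81.7 and 73.9 CPM in Thpok-RKF+ libraries (log2 fold change 1.90 ± 0.31, adjusted p = 0.0098). Adgrg5, an adhesion G protein-coupled receptor, was at 102, 83.2 and 81.1 CPM and 238, 232 and 235 CPM (1.40 ± 0.23, adjusted p = 0.00866). Ly6c2, a surface antigen of memory-type CD8 T cells, was at 19.9, 15.9 and 15.1 CPM and 54.4, 50.9 and 42.7 CPM (1.54 ± 0.22, adjusted p = 0.00305). None of these 3 genes had overlapping groups. All 3 were low in WT CD4 SP cells (2.10 ± 0.770, 3.68 ± 1.67 and 2.73 ± 0.764 CPM in that order) and high in WT CD8 SP cells (88.6 ± 15.8, 586 ± 45.9 and 55.6 ± 7.13 CPM). Dapl1 was at 21.6, 24.5 and 22.3 CPM and 58.6, 92.0 and 83.5 CPM (1.77 ± 0.27, adjusted p = 0.00548), and Cst7, the gene of the granule protease inhibitor cystatin F, at 8.14, 9.24 and 7.80 CPM and 13.1, 14.7 and 13.7 CPM (0.72 ± 0.15, adjusted p = 0.0344). Ly6c2 has close paralogs, so its reads are uncertain, and Cst7 was named after its values were seen. Ly6c2 and Dapl1 passed with each of the 6 libraries left out in turn. Cd160 missed the threshold without any 1 of Thpok-RKF- replicates 1 and 2 (edgeR, adjusted p from 0.0516 to 0.0618). Adgrg5 missed the threshold without any 1 of Thpok-RKF- replicates 2 and 3 (edgeR, adjusted p from 0.0558 to 0.0573). Cst7 missed the threshold without any 1 of the 5 libraries other than Thpok-RKF+ replicate 1 (edgeR, adjusted p from 0.0758 to 0.159).

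The falls of the cytotoxic list were Slc6a19 and Cacng4. Slc6a19, a neutral amino acid transporter, was at 338, 355 and 362 CPM in Thpok-RKF- and 147, 104 and 93.4 CPM in Thpok-RKF+ libraries (log2 fold change -1.61 ± 0.30, adjusted p = 0.0171). Cacng4, an auxiliary subunit of ion channels, was at 26.8, 33.2 and 31.3 CPM and 9.94, 7.97 and 8.88 CPM (-1.77 ± 0.32, adjusted p = 0.0158). Both pairs of groups were separate, and neither gene was expressed above 0.146 CPM on average in WT CD4 SP cells. In WT CD8 SP cells Slc6a19 stood at 72.1 ± 5.54 CPM and Cacng4 at 3.19 ± 1.57 CPM. For both genes every library of both CD4+CD8+ groups lay above all WT CD8 SP libraries. Tbx21, the T-bet gene, was at 0.631, 0 and 0 CPM and 3.05, 8.92 and 10.8 CPM without passing (5.12 ± 1.22, adjusted p = 0.064), although its groups did not overlap. Slc6a19 and Cacng4 missed the threshold without any 1 of the 4 libraries numbered 2 or 3 (edgeR, adjusted p from 0.0706 to 0.123).

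The genes that changed with Thpok-RKF were set beside the difference between the CD4 SP and CD8 SP groups of WT cells, which shares no library with it, although all libraries entered the same fit. Of all tested genes 1277 were higher (7.72%) and 1704 lower (10.3%) in WT CD4 SP cells. Among the 97 rises with Thpok-RKF, 26 were higher and 31 lower in WT CD4 SP cells, 26.8% and 32.0% of the rises. Among the 62 falls, 13 were higher and 23 lower, 21.0% and 37.1% of the falls. Counted the other way, the 26 shared rises were 2.04% of the genes higher in WT CD4 SP cells. Of the 159 genes 93 (58.5%) were thus called between the WT groups, and 46 of 99 (46.5%) when at least 2-fold was asked in both. The 561 genes at least 2-fold higher in WT CD4 SP cells had a median log2 fold change of 0.05 with Thpok-RKF, and the 836 genes at least 2-fold higher in WT CD8 SP cells one of -0.20, beside 0.01 over all genes.

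**Figure D4:**
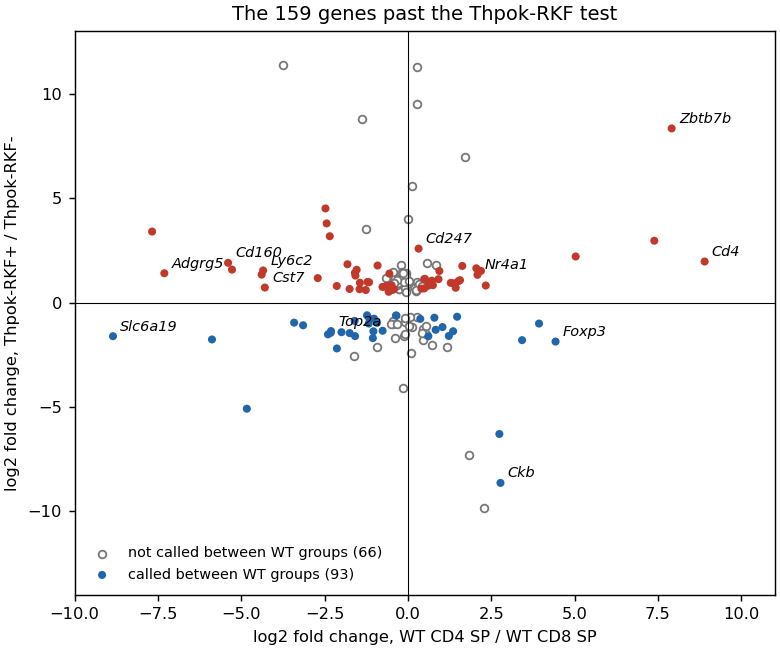
Log2 fold change with Thpok-RKF (vertical) against that between the CD4 SP and CD8 SP groups of WT cells (horizontal) for the 159 genes past the Thpok-RKF test. Filled points are the 93 genes also called between the WT groups, red where they rose and blue where they fell with Thpok-RKF; the 66 open points were not. Zbtb7b and Cd4 lie at the upper right and Adgrg5, Cd160 and Ly6c2 at the upper left, so rises are found on both sides.

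Regulatory T cell genes moved in both directions. Foxp3, the defining transcription factor of regulatory T cells, was at 50.1, 24 and 22.4 CPM in Thpok-RKF- libraries and 8.57, 8.88 and 8.95 CPM in Thpok-RKF+ libraries (log2 fold change -1.87 ± 0.33, adjusted p = 0.0147). The 3 Thpok-RKF+ values were close together, and Thpok-RKF- replicate 1 was about as high as WT CD4 SP cells (41.5 ± 11.3 CPM). In bulk libraries fewer cells of a type and less RNA per cell cannot be told apart. Gpr83, a receptor gene of regulatory T cells, was at 117, 115 and 143 CPM and 41.0, 55.1 and 55.4 CPM (-1.31 ± 0.15, adjusted p = 0.000742). Tnfrsf18, the gene of the costimulatory receptor GITR, rose instead, from 101, 67.4 and 70.8 CPM to 119.6, 184 and 151 CPM (0.92 ± 0.20, adjusted p = 0.0448). Of 17 tested genes these 3 passed, beside 0.961% of all genes, and the median was 0.22. Foxp3 and Gpr83 were thus lower and Tnfrsf18 higher in the same libraries. Gpr83 was also expressed where Foxp3 was low. In WT CD8 SP cells Gpr83 stood at 51.9 ± 4.45 CPM and Foxp3 at 1.93 ± 0.668 CPM. In Thpok-RKF- CD8 SP cells they stood at 74.9 ± 9.91 and 2.86 ± 0.863 CPM. WT CD4 SP cells had 92.4 ± 10.5 CPM of Gpr83. Gpr83 passed with each of the 6 libraries left out in turn. Foxp3 missed the threshold without any 1 of Thpok-RKF+ replicates 2 and 3 and Thpok-RKF- replicate 1 (edgeR, adjusted p from 0.0513 to 0.0764). Tnfrsf18 missed the threshold without any 1 of the 4 libraries numbered 2 or 3 (edgeR, adjusted p from 0.149 to 0.192).

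Mitosis genes had lower values in Thpok-RKF+ cells. All 25 listed genes had negative values, with a median log2 fold change of -1.01. Of them 4 fell, beside 0.375% of all genes: Top2a, Ube2c, Mki67 and Kif23. A further 14 had an unadjusted p below 0.05, against 6.69% of all genes with such a p and a lower level, and for 23 of the 25 genes the Thpok-RKF+ libraries lay below every Thpok-RKF- library, against 8.79% of all genes. Top2a, the topoisomerase that untangles chromosomes, was at 105, 107 and 96.9 CPM in Thpok-RKF- and 44.2, 31.9 and 43.6 CPM in Thpok-RKF+ libraries (log2 fold change -1.37 ± 0.26, adjusted p = 0.019). The proliferation marker Mki67 was at 60.3, 63.3 and 57.7 CPM and 26.9, 23.2 and 16.2 CPM (-1.45 ± 0.32, adjusted p = 0.0492). Ube2c, the ubiquitin-conjugating enzyme of the anaphase-promoting complex, was at 22.9, 21.9 and 22.5 CPM and 8.80, 9.66 and 6.68 CPM (-1.42 ± 0.30, adjusted p = 0.0377). Kif23, a kinesin of the cleavage furrow, was at 92.3, 93.7 and 96.5 CPM and 62.7, 59.3 and 62.9 CPM (-0.61 ± 0.11, adjusted p = 0.018). The groups were separate in all 4 genes. DESeq2 called 13 of the 25 genes, all lower, against 1.92% of all genes. Top2a, Mki67 and Ube2c missed the threshold without any 1 of the 5 libraries other than Thpok-RKF+ replicate 1 (edgeR, adjusted p from 0.0538 to 0.232). Kif23 missed the threshold without any 1 of the 4 libraries numbered 2 or 3 (edgeR, adjusted p from 0.0821 to 0.102).

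The summed level of the 25 genes was 817, 774 and 754 CPM in Thpok-RKF- libraries and 389, 408 and 389 CPM in Thpok-RKF+ libraries. The 3 libraries of each group were close to each other and far from the other group. Without Thpok-RKF+ replicate 1 the median was -0.99 and 9 of the 25 genes passed, all lower. In that fit 4.23% of all genes passed with a lower level. The sums lay between 199 and 239 CPM in Thpok-RKF- CD8 SP, between 290.2 and 463 CPM in WT CD4 SP and between 1044 and 1782 CPM in WT CD8 SP libraries. Genes of DNA replication gave no call. None of 30 passed by edgeR and 2 by DESeq2, 5 had an unadjusted p below 0.05, all lower, and the median was -0.02, or 0.03 without Thpok-RKF+ replicate 1. The shares of all genes lower by these rules were 1.92% and 6.69%. For 9 of the 30 genes the Thpok-RKF+ libraries lay below every Thpok-RKF- library, and for 1 they lay above. Of all genes 16.4% were separate in either direction and 8.79% with a lower level. The sums of the replication genes were 1930.4, 1994 and 1970.4 CPM in Thpok-RKF- libraries and 1812, 2071 and 1993 CPM in Thpok-RKF+ libraries. These sums overlapped between the groups. The nucleotide reductase subunit gene Rrm2 was at 63.1, 65.5 and 76.0 CPM and 32.6, 42.7 and 36.3 CPM (-0.87 ± 0.27, adjusted p = 0.155), and the replication factor gene Mcm10 had a value of -0.94 ± 0.29 (adjusted p = 0.168).

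Other genes of cell division among the falls were named after their values were seen, except Kif2c. Racgap1, the partner of Kif23 in the centralspindlin complex of cytokinesis, was at 123, 114 and 111 CPM and 64.6, 57.8 and 56.1 CPM (-0.96 ± 0.16, adjusted p = 0.0123). Kif2c, a kinesin that depolymerises microtubules at kinetochores, was at 11.1, 15.1 and 13.8 CPM and 3.68, 7.0 and 3.81 CPM (-1.46 ± 0.32, adjusted p = 0.0448). Depdc1b and Arhgap11a had values of -1.09 ± 0.24 and -0.78 ± 0.17 (adjusted p = 0.0436 and 0.048). Racgap1 missed the threshold without any 1 of Thpok-RKF+ replicates 2 and 3 and Thpok-RKF- replicate 2 (edgeR, adjusted p from 0.0506 to 0.0764). Kif2c missed the threshold without any 1 of Thpok-RKF+ replicate 3 and Thpok-RKF- replicates 1, 2 and 3 (edgeR, adjusted p from 0.0654 to 0.221). Depdc1b and Arhgap11a missed the threshold without any 1 of the 5 libraries other than Thpok-RKF+ replicate 1 (edgeR, adjusted p from 0.0612 to 0.217).

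**Figure D5:**
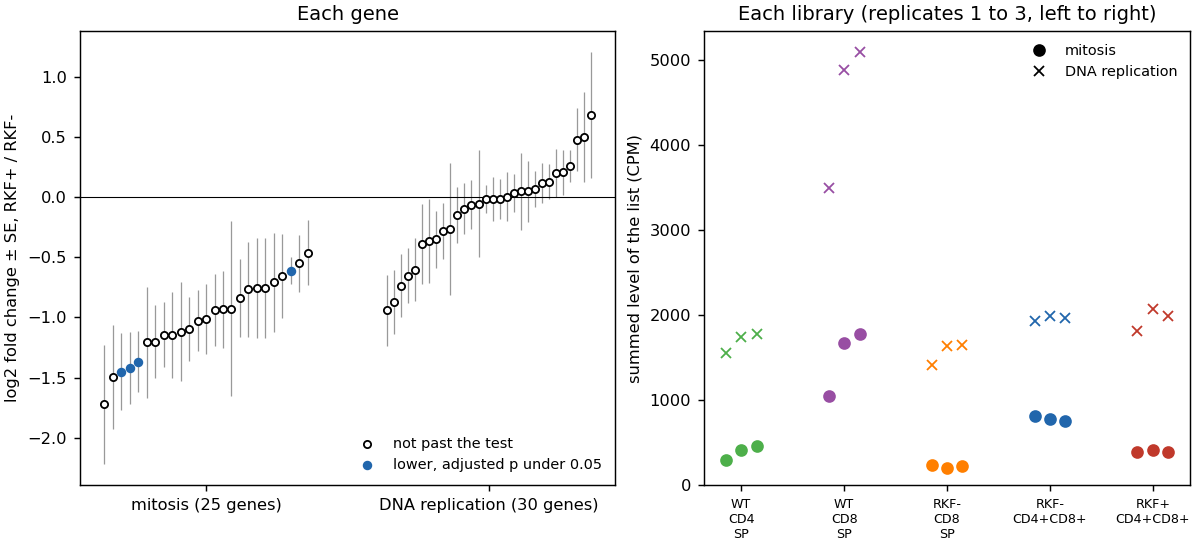
Left, log2 fold change with its SE for each of 25 mitosis and 30 DNA replication genes, ordered by value, with the 4 genes past the test filled. Right, the summed level of each list in CPM in each of the 15 libraries: the mitosis sums lie at 754 to 817 CPM in Thpok-RKF- and 389 to 408 CPM in Thpok-RKF+ CD4+CD8+ libraries, while the replication sums of both groups overlap.

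The promoters of the mitosis genes called are shown because these genes fell in the same libraries and many cell division genes share short promoter elements, the cell cycle genes homology region (TTTGAA or TTCAAA) and the CCAAT box (CCAAT or ATTGG). The 120 bases before the annotated start are given from RefSeq for the build GRCm38.p6, which is not the build named for the counts, 5′ to 3′ on the strand of the gene, with matches to either element on either strand in capitals. They lie at chr11:99024190-99024309 (minus strand) for Top2a, chr2:164769809-164769928 (plus strand) for Ube2c, chr7:135716380-135716499 (minus strand) for Mki67 and chr9:61946800-61946919 (minus strand) for Kif23.
Top2a: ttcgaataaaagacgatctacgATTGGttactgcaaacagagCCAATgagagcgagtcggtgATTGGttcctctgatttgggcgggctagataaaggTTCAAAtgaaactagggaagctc
Ube2c: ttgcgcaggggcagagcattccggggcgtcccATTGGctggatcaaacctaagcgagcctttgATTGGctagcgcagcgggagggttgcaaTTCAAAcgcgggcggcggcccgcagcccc
Mki67: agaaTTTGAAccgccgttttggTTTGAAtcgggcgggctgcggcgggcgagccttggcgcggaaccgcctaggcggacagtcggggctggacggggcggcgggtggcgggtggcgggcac
Kif23: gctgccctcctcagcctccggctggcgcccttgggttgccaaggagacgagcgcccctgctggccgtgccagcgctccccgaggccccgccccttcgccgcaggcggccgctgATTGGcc
Top2a and Ube2c held both elements in these windows of 120 bases, Mki67 held TTTGAA at 2 places and Kif23 held ATTGG alone. Over the 250 bases before the start, which the shares below use, Mki67 also held the CCAAT box at 3 places. Bases just after the annotated start were found in GENCODE transcripts of the gene for Top2a and Ube2c. They were not found for Mki67 and Kif23, so the placing of these windows is less certain. Over the 250 bases before the start, 42.9% of the 21 matched mitosis genes held the homology region, 81.0% a CCAAT box and 42.9% both. Of 25 matched DNA replication genes 16% held the homology region, 64% a CCAAT box and 12% both. Of all 27025 genes with a RefSeq promoter, 18.3% held the homology region, 37.5% a CCAAT box and 6.45% both. Of the 10573 matched genes among those tested, the shares were 13.3%, 40.4% and 5.03%. Counted over all 32851 promoters, the shares were 16%, 33.8% and 5.55%. A match is a description of the letters and not evidence of a bound site.

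Several of the falls outside these lists were in genes abundant in Thpok-RKF- CD8 SP cells, whose levels are given beside them without a test. Pcsk1, a proprotein convertase, stood at 109 ± 20.9 CPM in Thpok-RKF- CD8 SP cells, at 48.7, 62.7 and 48.6 CPM in Thpok-RKF- CD4+CD8+ libraries and at 8.59, 10.4 and 17.7 CPM in Thpok-RKF+ libraries (log2 fold change -2.12 ± 0.40, adjusted p = 0.0187). Slc28a2b, a nucleoside transporter gene with close paralogs, stood at 694 ± 187 CPM, then at 209.7, 185 and 174 CPM and 69.2, 51.5 and 64.9 CPM (-1.62 ± 0.19, adjusted p = 0.000671). Tubb2a, a beta tubulin gene, stood at 203 ± 6.08 CPM, then at 72.9, 62.7 and 58.0 CPM and 24.2, 23.9 and 26.6 CPM (-1.37 ± 0.13, adjusted p = 7.80e-05). Slc6a19, described above, stood at 1019 ± 64.5 CPM in Thpok-RKF- CD8 SP cells. In each of these 4 genes the Thpok-RKF+ libraries lay below all libraries of the Thpok-RKF- groups. Actn2, an alpha-actinin of the cytoskeleton, and Pim1, a serine/threonine kinase of survival signals, had values of -1.52 ± 0.23 and -1.48 ± 0.25 (adjusted p = 0.00463 and 0.0114). Pim1 was at 29.5, 28.6 and 31.5 CPM and 10.4, 11 and 10.8 CPM, beside 46.1 ± 6.48 CPM in Thpok-RKF- CD8 SP and 3.75 ± 1.61 CPM in WT CD4 SP cells. Tubb2a was named after its values were seen. Slc28a2b, Tubb2a and Actn2 passed with each of the 6 libraries left out in turn. Actn2 missed the threshold in a fit of the 6 libraries alone (edgeR, adjusted p = 0.0722). Pcsk1 missed the threshold without any 1 of Thpok-RKF+ replicate 2 and Thpok-RKF- replicates 2 and 3 (edgeR, adjusted p from 0.0626 to 0.108). Pim1 missed the threshold without any 1 of Thpok-RKF+ replicates 2 and 3 and Thpok-RKF- replicate 3 (edgeR, adjusted p from 0.0531 to 0.0685).

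Further falls were found in the genes that follow. Amigo2, a leucine-rich repeat adhesion protein, was at 80.3, 90.2 and 87.2 CPM and 26.8, 30.9 and 27.3 CPM (-1.60 ± 0.12, adjusted p = 1.11e-05). Prex1, an exchange factor for Rac, was at 434, 351 and 354 CPM and 181, 120.4 and 145 CPM (-1.35 ± 0.17, adjusted p = 0.0017). Synj2, an inositol phosphatase of endocytosis, was at 73.4, 47.7 and 48.7 CPM and 20.6, 17.3 and 22.8 CPM (-1.48 ± 0.22, adjusted p = 0.00369). All 3 had separate groups. Myo10, an unconventional myosin of filopodia, Cep170b, a centrosomal protein gene, and Pcbp4, an RNA-binding protein gene, had values of -1.80 ± 0.39, -1.59 ± 0.32 and -1.49 ± 0.27 (adjusted p = 0.0453, 0.0281 and 0.0153). Abundant genes with smaller falls were Als2cl (-0.78 ± 0.12) and the filamin-binding Rflnb (-0.72 ± 0.10), with adjusted p = 0.00557 and 0.00245. Pld4, a gene of the phospholipase D family next to Cep170b in RefSeq order, was at 7.77, 3.81 and 7.02 CPM and 0.529, 0 and 0 CPM (-5.09 ± 1.10, adjusted p = 0.0433), with all 25 Thpok-RKF+ counts in replicate 1 and a fitted value of -11.10 without it. Named like Pld4 after their values were seen, the BMP and TGF-beta receptor gene Acvrl1 (-1.17 ± 0.17), the BMP co-receptor gene Rgmb (-1.15 ± 0.17) and the glucose transporter gene Slc2a3 (-1.05 ± 0.15) fell as well. Amigo2, Prex1, Synj2, Als2cl, Rflnb, Acvrl1, Rgmb and Slc2a3 passed with each of the 6 libraries left out in turn. Als2cl, Rflnb, Acvrl1, Rgmb and Slc2a3 missed the threshold in a fit of the 6 libraries alone (edgeR, adjusted p from 0.0549 to 0.0741). Myo10 and Pld4 missed the threshold without any 1 of the 5 libraries other than Thpok-RKF+ replicate 1 (edgeR, adjusted p from 0.0828 to 0.159). Cep170b missed the threshold without any 1 of the 4 libraries numbered 2 or 3 (edgeR, adjusted p from 0.1 to 0.16). Pcbp4 missed the threshold without any 1 of Thpok-RKF+ replicate 2 and Thpok-RKF- replicates 1 and 3 (edgeR, adjusted p from 0.0544 to 0.073).

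Further rises were found in the genes that follow. Dhrs7, a short-chain dehydrogenase, was at 14.3, 16.8 and 11.4 CPM in Thpok-RKF- and 32.4, 57.2 and 56.6 CPM in Thpok-RKF+ libraries (log2 fold change 1.78 ± 0.22, adjusted p = 0.00125). Pafah1b3, a catalytic subunit of platelet-activating factor acetylhydrolase, was at 17.7, 16.9 and 17.9 CPM and 45.4, 49.5 and 50.7 CPM (1.47 ± 0.15, adjusted p = 0.000233). Sardh, the sarcosine dehydrogenase of mitochondria, was at 8.0, 6.16 and 7.11 CPM and 16.6, 25.3 and 24.4 CPM (1.64 ± 0.27, adjusted p = 0.0108). In Dhrs7 and Sardh replicate 1 was the lowest Thpok-RKF+ library, and all 3 genes had separate groups. Xdh, the purine enzyme xanthine dehydrogenase, and Rcn3, a calcium-binding protein of the secretory pathway, had values of 1.42 ± 0.26 and 1.42 ± 0.25 (adjusted p = 0.0175 and 0.0142). Among abundant genes, Cyth4, an exchange factor for ARF GTPases (0.75 ± 0.13), Sema4a, a semaphorin (0.74 ± 0.13), and Prkch, a protein kinase C isoform (0.51 ± 0.10), rose with adjusted p = 0.0114, 0.0153 and 0.0328. Ptpn7, a tyrosine phosphatase of blood cells that acts on MAP kinases, and Samhd1, a dNTP hydrolase, were named after their values were seen. Ptpn7 was at 162, 188 and 175 CPM and 289.8, 383 and 413 CPM (1.05 ± 0.12, adjusted p = 0.000742), and Samhd1 at 298, 257 and 260.4 CPM and 429, 591 and 547 CPM (0.94 ± 0.15, adjusted p = 0.00795). Dhrs7, Pafah1b3, Ptpn7 and Samhd1 passed with each of the 6 libraries left out in turn. Samhd1 missed the threshold in a fit of the 6 libraries alone (edgeR, adjusted p = 0.051). Sardh, Rcn3, Cyth4 and Sema4a missed the threshold without any 1 of the 4 libraries numbered 2 or 3 (edgeR, adjusted p from 0.0502 to 0.0872). Xdh missed the threshold without any 1 of Thpok-RKF+ replicate 3 and Thpok-RKF- replicates 2 and 3 (edgeR, adjusted p from 0.0766 to 0.1). Prkch missed the threshold without any 1 of the 5 libraries other than Thpok-RKF+ replicate 1 (edgeR, adjusted p from 0.068 to 0.16).

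Interferon, MHC class I and receptor genes held few calls, which stand beside the 0.586% of all genes that rose. Of 42 tested interferon response genes 2 rose, the antiviral GTPase gene Mx2 at 8.81, 9.26 and 3.69 CPM and 16.3, 20.1 and 25.8 CPM (1.51 ± 0.31, adjusted p = 0.0315) and the cytokine signalling inhibitor Socs1 at 96.7, 107 and 103 CPM and 144, 169 and 153 CPM (0.60 ± 0.11, adjusted p = 0.0142). The median of the interferon list was 0.09. Without Thpok-RKF+ replicate 1 it was 0.25 and 6 of the 42 members passed, all higher, beside 5.51% of all genes. Of 20 tested MHC class I genes (median 0.16) H2-Q6, a nonclassical heavy chain with close paralogs, rose from 33.4, 17.2 and 17.5 CPM to 74.5, 63.9 and 64.3 CPM (1.57 ± 0.23, adjusted p = 0.00364). Of 16 chemokine receptor genes (median 0.08, or 0.18 without Thpok-RKF+ replicate 1) Gpr183, an oxysterol receptor that guides lymphocyte migration, rose from 47.7, 61.8 and 48.7 CPM to 89.5, 95.6 and 93.6 CPM (0.82 ± 0.15, adjusted p = 0.0171). These 4 genes had separate groups. Of 23 cytokine receptor and SOCS genes Socs1 was the only call, and Il2rg, the common gamma chain, had a value of 0.64 ± 0.22 (adjusted p = 0.211). The median of that list was 0.18. Of 22 costimulators and coinhibitors (median 0.20) only Tnfrsf18 passed, and Fasl, the ligand of the death receptor Fas, had a value of 2.31 ± 0.85 (adjusted p = 0.234). Of 13 NKT and innate-like genes (median 0.27) only Cd160 passed, while DESeq2 called 4, all higher, beside 4.14% of all genes in either direction. Of 8 genes of the Ly6 family (median 0.17, or -0.06 without Thpok-RKF+ replicate 1) Ly6c2 passed, and its neighbour in sequence Ly6c1 was at 7.96, 8.95 and 9.91 CPM and 4.82, 3.24 and 2.39 CPM, a value of the other sign (-1.36 ± 0.32, adjusted p = 0.0631). H2-Q6 passed with each of the 6 libraries left out in turn. H2-Q6 missed the threshold in a fit of the 6 libraries alone (edgeR, adjusted p = 0.0638). Mx2 and Socs1 missed the threshold without any 1 of the 5 libraries other than Thpok-RKF+ replicate 1 (edgeR, adjusted p from 0.06 to 0.156). Gpr183 missed the threshold without any 1 of Thpok-RKF+ replicates 2 and 3 and Thpok-RKF- replicates 1 and 3 (edgeR, adjusted p from 0.0693 to 0.121).

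Regulators and states of development gave no call by edgeR. This held for 27 thymocyte transcription factors (median -0.13, 6 with an unadjusted p below 0.05), 14 components of the chromatin-remodelling NuRD complex (median 0.04, 2 below 0.05), 16 other corepressors (median -0.08, 1 below 0.05), 19 maturation and egress genes (median -0.06, 4 below 0.05) and 20 effector and memory genes (median 0.10, 8 below 0.05). It also held for 16 immature thymocyte genes (median -0.30, 4 below 0.05), 10 T helper effector genes (median 0.04, 3 below 0.05), 14 genes of the BCL2 family (median -0.07, 2 below 0.05) and 16 immediate early and stress genes (median 0.01, 3 below 0.05). DESeq2 called 1 gene each, higher, among the transcription factors, the NuRD components, the immature thymocyte genes, the T helper effector genes, the BCL2 family and the stress genes. It called 2 higher and 2 lower among the effector and memory genes and 0 in the other 2 lists. Without Thpok-RKF+ replicate 1 the calls were 1 higher and 3 lower for the transcription factors, 2 and 4 for NuRD, 1 and 3 for the other corepressors, 2 and 3 for maturation and egress, and 1 and 1 for effector and memory genes. They were 1 and 2 for immature thymocyte genes, 1 and 0 for T helper effector genes, 3 and 1 for the BCL2 family and 1 and 1 for the stress genes. These counts stand beside the 9.74% of all genes that passed without that library, those by DESeq2 beside 4.14% and those with an unadjusted p below 0.05 beside 14.3%. The median of the immature thymocyte genes was -0.68 without that library. Rag1, a recombinase gene of immature thymocytes, was at 7.39, 3.08 and 2.04 CPM in Thpok-RKF- and 6.60, 0.259 and 0.284 CPM in Thpok-RKF+ libraries, high in both libraries numbered 1 (-0.81 ± 1.10, adjusted p = 0.792). It was named outside the naming rule. The members of that list with the lowest p were Cd1d1 and Mns1. Cd1d1 was at 122, 101 and 85.6 CPM and 130, 204 and 180 CPM, with separate groups (0.73 ± 0.21, edgeR, adjusted p = 0.125). Mns1 had a value of the other sign (-0.75 ± 0.27, edgeR, adjusted p = 0.223). Other medians without Thpok-RKF+ replicate 1 were 0.11 for NuRD, 0.07 for the T helper effector genes and 0.13 for the stress genes.

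Markers of other cells that such a gate could hold gave a single call. The B cell list rested on Ighm and on Ighd, an immunoglobulin heavy chain gene. Ighm made up most of the summed level of the list, 363 to 760 CPM. Ighd rose from 0.326, 0.0443 and 1.02 CPM to 4.8, 6.68 and 3.25 CPM (3.40 ± 0.73, adjusted p = 0.0432), with no overlap. Its fitted value was 4.70 without Thpok-RKF- replicate 3. In the sorted WT CD8 SP cells Ighd stood at 45.3 ± 10.4 CPM, and in WT CD4 SP cells at 0.216 ± 0.142 CPM. The B cell marker Cd79a had a value of 0.51 ± 0.37 and did not pass (edgeR, adjusted p = 0.564). Of 9 tested myeloid markers none passed by edgeR. Adgre1, which encodes F4/80, was at 0.0610, 0 and 0 CPM and 4.44, 0 and 1.14 CPM. Among the 6 CD4+CD8+ libraries C1qa had no count outside Thpok-RKF+ replicate 1. The median of the myeloid list was 3.54 with that library and -0.44 without it. Of 5 tested NK cell markers, 6 of gamma-delta T cells, 10 of dendritic cells, 6 of stroma and 4 of erythroid cells, none passed by edgeR, and 2, 0, 0, 1 and 1 had an unadjusted p below 0.05. The summed NK marker levels were 227 to 261 CPM in Thpok-RKF- and 201 to 304 CPM in Thpok-RKF+ libraries. DESeq2 called 1 myeloid and 1 NK cell marker, both higher, and 0 in the other 4 lists without a call, beside 4.14% of all genes. Of the 9 myeloid markers 3 had an unadjusted p below 0.05, all higher, beside 14.3% of all genes in either direction. The part of such cells in the results was not tested. Ighd missed the threshold without any 1 of Thpok-RKF+ replicates 2 and 3 and Thpok-RKF- replicates 1 and 2 (edgeR, adjusted p from 0.0794 to 0.137).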

How the data were processed

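The deposited file held raw gene counts of mouse RNA-seq libraries, and per the file headers it had 1 column for each of the 15 libraries used here. A further 3 columns matched no sample and were not used. Per the submitters' processing notes, bcl2fastq 2.17, Trimmomatic, STAR, HTSeq and DESeq2 were among the tools and mm39 was the build. The sources used here do not give the strand setting or the annotation. The 5 summary lines without a gene took 15.9% to 21.0% of the counts in the 6 CD4+CD8+ libraries and were left out.

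Genes with at least 10 counts in enough libraries and 15 in all (filterByExpr) were kept, 16550 of 53762. edgeR 4.0.16 (R 4.3.3) fitted TMM-normalised counts of all 15 libraries, 5 groups, with the quasi-likelihood test. P-values were adjusted by Benjamini-Hochberg over all genes tested, and adjusted p under 0.05 counted as a call. The p-values are two-sided. CPM used the same TMM factors. DESeq2 1.42.0 and limma 3.58.1 served as alternatives, and scripts were tested on simulated data. There the main test recovered 36 of 100 genes given a log2 change of 1 and 57 of 100 given a log2 change of 2. A gene that was not called may therefore still differ.

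Genes were named by rule: Zbtb7b, Cd247, Ckb, Syt10, Runx3, Cd4, Cd8a, Cd8b1 and Gata3; the 15 largest rises and 15 largest falls at mean log2 CPM of 3 or more; the 5 most abundant calls each way; and up to 4 calls per gene list, or, where fewer than 2 passed, up to 2 further members. Others are stated as named after their values were seen. The members and lists were chosen with earlier results of these data known. Promoters came from RefSeq on GRCm38.p6 by gene symbol.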

Additional observations from a re-analysis of the deposited data

How the results depend on the processing

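The count of 159 genes (97 higher, 62 lower) became 165 with RLE size factors and 226 with a minimum of 1 CPM in 3 libraries. It was 428 without a low-count filter (203 higher, 225 lower), 685 by DESeq2 (368 and 317), 350 with a term for the libraries numbered 1 (207 and 143) and 1753 without those libraries (983 and 770). It was 307 by limma on log2(CPM + 1) (169 and 138) and 259 on log2(CPM + 0.25) (141 and 118). It fell to 52 in a fit of the 6 CD4+CD8+ libraries alone (30 and 22) and to 26 when 1.5-fold was the least change tested (18 and 8). Leaving out each library in turn gave 50 to 1677 genes, 27 to 949 higher and 21 to 728 lower, and 12 of the 159 genes passed under every alternative: Amigo2, Cd247, Ckb, Cpne8, Dapl1, Gm8615, Ly6c2, Pafah1b3, Prex1, Slc28a2b, Syt10 and Zbtb7b. The cause of these differences was not tested. The share also called between the WT groups was 58.5%, and 46.5% with 2-fold in both, while the WT count of 2981 lay between 2977 and 3809.

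With the replicate number as a block, 236 genes passed over all libraries (138 higher, 98 lower) and 17 over the 6 libraries (12 and 5). The numbers were not taken to pair the samples: deviations of same-numbered CD4+CD8+ libraries correlated at 0.219, 0.112 and 0.050, and Thpok-RKF+ replicate 3 correlated best with Thpok-RKF- replicate 2.

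Among the named genes that were not called, Cd8b1, Ckm, Hbb-bs and Gata3 changed sign when 1 library was left out, and Blk and C1qa went to 0. The ranges were -4.07 to 0 for Blk (0 without Thpok-RKF- replicate 2), 0 to 9.74 for C1qa (0 without Thpok-RKF+ replicate 1) and -0.026 to 0.24 for Cd8b1 (lowest without Thpok-RKF- replicate 1). They were -2.63 to 6.16 for Ckm, -2.63 to 6.15 for Hbb-bs and -0.0097 to 0.22 for Gata3, each lowest without Thpok-RKF+ replicate 3. Genes with few counts are limited by depth: a floor of 3 counts over a group underlies the bounds given for genes with 0 counts.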
